A study of Mus musculus with 3 samples.

Results

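Replication-dependent histone genes encode the core histones H2A, H2B, H3 and H4 and the linker histone H1 that package newly copied DNA. They were taken here as every gene whose GRCm38 symbol begins with Hist1h, Hist2h, Hist3h or Hist4h, which gave 70 of the 50262 genes in the count table. Most of these genes are transcribed mainly in S phase. Their mature mRNAs typically end in a short stem-loop bound by stem-loop binding protein (Slbp) and carry no poly(A) tail, although some members also make polyadenylated transcripts. The inDrop libraries of this study were primed on poly(A), so a count here is of captured molecules, each marked by a unique molecular identifier (UMI), and not of all histone mRNA in a cell.

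The cells came from mouse glioblastomas that arise from a conditional human EGFR transgene (wild type, per the labels) together with a Cdkn2a -/- background, on a mixed genetic background with a conditional luciferase reporter. Tumors were started in adult mice by stereotactic injection of a Cre lentivirus into the striatum, so recombination was limited to infected cells, and the brain without cerebellum was dissociated. An early, a medium and a late tumor sample were sorted into viable CD45+ (leukocyte) and viable CD45- cells. By the library labels each stage was 1 tumor sample, the methods state that early samples were pooled, and no tumor-free brain is among the cells analysed here. The deposited samples are sequencing runs, all but 1 titled as pools of tumors, and the libraries of a stage are spread over them. The tumor sample of a stage, not the run, was taken as the replicate. Differences between stages were therefore not tested, whereas the sorts and the cell classes within them were compared over the 3 tumor samples.

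The 24 libraries, 4 per stage and sort over 3 sequencing runs, held 20811 cells, of which 17781 passed the filters (11185 CD45+ and 6596 CD45-) with 51168586 UMIs. Libraries ranged from 62320 to 4305948 UMIs and from 17 to 1751 kept cells. Ptprc, which encodes CD45, had a UMI in 24.6% of CD45+ and 2.40% of CD45- cells, and 5.38% of CD45- cells fell in immune classes. Of 18335 cell barcodes, 2117 occurred in more than 1 library. Pairs of libraries from the same stage and sort shared 55.1 barcodes per 1000000 pairs of cells and all other pairs 7.69, so some cells appear to have been counted in more than 1 library. Results were also computed with 1 cell per barcode within each stage and sort (16651 cells).

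The members lie on 4 chromosomes, with 56 on chromosome 13, 10 on chromosome 3, 3 on chromosome 11 and 1 on chromosome 6, and 67 of them are annotated as protein coding and 3 as pseudogenes. The mature end of a replication-dependent histone mRNA is set by the stem-loop. The 16-base histone stem-loop motif was searched on the transcript strand of the GENCODE M21 models, and matched in 46 of 70 members against 57 of 21901 protein-coding genes (0.26%). In 23 members the model stopped within 100 bases of the loop, in 23 it ran further, and in 24 no loop was found. Some models without a loop are short, such as those of Hist1h2an (393 bases) and Hist1h2bl (381). A missing match therefore does not show that the gene lacks a stem-loop. The sequences around the loop of 8 members named below are shown with the stem-loop in capitals, since these 8 have the same loop but differ in how far the model runs past it. Some other members carry variants of the loop.
Hist1h2ap: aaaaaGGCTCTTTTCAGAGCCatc
Hist1h2ao: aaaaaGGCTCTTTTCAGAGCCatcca
Hist1h2ag: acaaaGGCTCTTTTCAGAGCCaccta
Hist1h2ad: acaaaGGCTCTTTTCAGAGCCatcca
Hist2h2aa1: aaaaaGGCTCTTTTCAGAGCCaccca
Hist1h1c: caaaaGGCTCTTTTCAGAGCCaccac
Hist3h2a: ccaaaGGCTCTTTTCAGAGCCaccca
Hist3h2ba: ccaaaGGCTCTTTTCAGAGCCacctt
All 8 carried the same 16 bases. The Hist1h2ap model (chromosome 13, 21833026 to 21833507, minus strand, GRCm38) ended 3 bases after the loop and the Hist1h2ao model (chromosome 13, 21810465 to 21810944, plus strand) 31 bases after it. The Hist1h2ag and Hist1h2ad models ended 23 and 42 bases past the loop, and that of Hist2h2aa1 35 bases past it. By contrast, the models of Hist1h1c (chromosome 13, 23738808 to 23740367), Hist3h2a (chromosome 11, 58954685 to 58956830) and Hist3h2ba (chromosome 11, 58948920 to 58949533) ran on for 840, 1643 and 169 bases, and each held a polyadenylation signal AATAAA within its last 50 bases. No loop was matched in the 1156-base model of Hist1h2bc (chromosome 13, 23684199 to 23692908), the member with most UMIs.

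Promoters were read from RefSeq for GRCm38.p6 as 250 bases before to 50 after each start, and 62 members matched with 63 promoters. CCAAT, the box bound by NF-Y, occurred on either strand in 54 of the 63 (85.7%) against 37.4% of 32851 promoters. TATAAA, searched in the same way and separately, occurred in 35 (55.6%) against 13.6%. Windows of neighbouring members can overlap, as those of Hist1h2aa and Hist1h2ba do, so that a box can count for both. The 63 promoters are therefore not all separate observations. The promoters of Hist1h2ap (chr13:21833426-21833725, minus strand) and Hist3h2a (chr11:58954435-58954734, plus strand) are printed with CCAAT and its reverse complement ATTGG in capitals, because the levels of these genes followed different patterns in the cells described below.
Hist1h2ap: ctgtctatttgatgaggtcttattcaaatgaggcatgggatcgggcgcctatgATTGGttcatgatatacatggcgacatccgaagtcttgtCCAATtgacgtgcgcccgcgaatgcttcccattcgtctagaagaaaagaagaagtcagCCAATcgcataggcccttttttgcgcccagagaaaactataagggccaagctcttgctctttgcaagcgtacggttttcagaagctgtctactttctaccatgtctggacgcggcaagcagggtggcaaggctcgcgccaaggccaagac
Hist3h2a: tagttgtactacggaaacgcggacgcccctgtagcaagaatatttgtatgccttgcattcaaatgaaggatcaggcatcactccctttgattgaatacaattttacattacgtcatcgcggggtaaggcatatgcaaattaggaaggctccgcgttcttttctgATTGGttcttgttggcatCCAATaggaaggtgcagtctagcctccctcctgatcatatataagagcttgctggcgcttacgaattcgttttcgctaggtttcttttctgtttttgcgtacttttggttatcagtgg
The Hist1h2ap promoter held 3 CCAAT boxes and that of Hist3h2a 2. Neither held TATAAA.

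The members together held 30950 UMIs in kept cells, 0.0605% of all UMIs, and 37.9% of cells had at least 1. Captured UMIs were unevenly spread over the histone families. The 20 H2A genes held 45.7% of the UMIs, the 19 H2B genes 31.8% and the 6 H1 genes 16.8%, whereas the 13 H4 genes held 3.62% and the 12 H3 genes 2.04%. The 12 members with most UMIs held 80.3%, and 31 members had fewer than 30 UMIs each. Hist1h2bc, an H2B gene, led with 8022 UMIs in 2857 cells, followed by Hist1h1c, which encodes linker histone H1.2, with 4726 UMIs in 2188 cells. Next came the H2A genes Hist1h2ap (2938 UMIs), Hist1h2ao (2431), Hist3h2a (1720) and Hist1h2ag (851).

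Near-identical copies limit how far single members can be told apart. Grouping genes that share at least 50% of their 31-base words, directly or through another member, put 52 members into 7 groups, the largest with 14 H2B and 13 H2A genes of the Hist1 cluster. Hist2h2aa1 and Hist2h2aa2 had the same count in 681 of the 686 cells with either gene, and Hist1h2ah and Hist1h2an in 311 of 329. Hist1h2ao and Hist1h2ap had the same count in 554 of 826. Such genes are not separate measurements. Other pairs within a group differed in their counts. Hist1h2bc and Hist1h2be had the same count in 49 of 3079 cells with either gene, Hist1h4h and Hist1h4i in 8 of 484, and Hist2h3c1 and Hist2h3c2 in 22 of 320. Taking in each cell only the highest member of each group left 22083 UMIs, which also drops UMIs of members whose counts differed.

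Members differed in how far their transcripts sat in few cells. For Hist1h2ap, 69.7% of its UMIs were in the 1% of cells with most of them, with up to 59 in a cell, and the value for Hist1h2ao was 70.3%. The same share was 24.6% for Hist1h2bc, 27.0% for Hist1h1c, 35.0% for Hist2h2aa1, 55.5% for Hist3h2ba, 58.1% for Hist1h2be and 77.0% for Hist1h1d. It rises as fewer cells hold a UMI, so it compares only members with similar numbers of such cells, such as Hist1h2ap (824 cells) and Hist2h2aa1 (686). Cells with at least 1 UMI of Mki67 or Top2a, genes of dividing cells, are called cycling here, and made up 1391 of the kept cells (7.82%). They held 84.8% of Hist1h2ap, 84.9% of Hist1h2ao and 83.2% of Hist1h2ag UMIs, but 10.0% of Hist1h2bc, 15.0% of Hist1h1c, 14.2% of Hist3h2a and 5.38% of Hist2h2aa1 UMIs. Cycling cells were also deeper, with a median of 3336 UMIs against 2094 in the other cells. Their part of all UMIs was thus larger than 7.82%, and the shares of Hist1h2bc, Hist1h1c and Hist3h2a are not read as enrichment.

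Transcript ends were set beside these shares. Of 28 members with at least 100 UMIs, 11 had most of their UMIs in cycling cells. The share of all genes for which this holds was not counted. The 11 were 4 of 7 members whose model ended near the loop, 2 of 12 whose model ran past it, and 5 of 9 with no loop in the model. All 11 belong to the 13-gene H2A copy group and share sequence. They were counted as 1 observation, and these counts do not show how the share relates to the annotated end. Hist1h2ac, 1 of the 2 that ran past the loop, had the same count as Hist1h2ap in only 16 of 895 cells with either gene. The 3 members that ended near the loop and stayed low were Hist2h2aa1, Hist2h2aa2 and Hist1h4h, an H4 gene, with the lowest share of 2.63%.

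**Figure D1:**
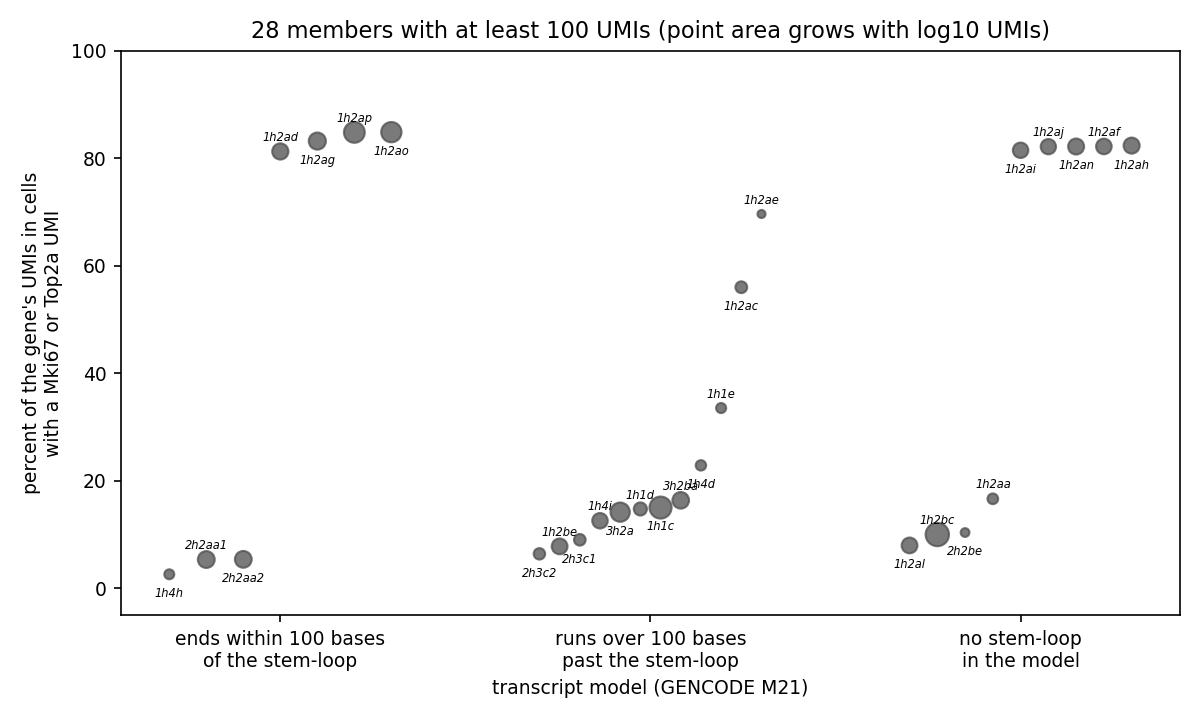
Percent of each gene's UMIs that lie in cells with a Mki67 or Top2a UMI, for the 28 members with at least 100 UMIs, by how the transcript model ends. Each point is a gene labelled without the prefix Hist. 9 Hist1h2a genes sit at 81.3 to 84.9% in the first and last columns, while Hist1h2aa and Hist1h2al in the last lie lower, and the members that run past the loop range from 6.44 to 69.6%.

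By sort and stage, the members as a whole were at 319, 654 and 402 counts per 1000000 UMIs (CPM) in CD45+ cells of the early, medium and late tumor sample, and at 754, 881 and 670 in CD45- cells. CD45- cells had the higher value at each stage. With copies collapsed the values were 256, 368 and 292 in CD45+ and 600, 658 and 471 in CD45- cells, so that the CD45+ medium sample no longer stood as far apart. The level of Hist1h2ap in CD45+ cells was 18.1, 119 and 39.4 CPM, and in CD45- cells 19.3, 64.5 and 74.6. With 1 cell per barcode the CD45+ medium value was 100.5.

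Mki67 moved in the same order as Hist1h2ap in both sorts, with 19.6, 99.3 and 63.2 CPM in CD45+ and 7.65, 29.1 and 88.1 in CD45- cells. Libraries of 1 stage and sort varied, from 15.9 to 43.0 CPM for Hist1h2ap in CD45+ early cells, from 87.0 to 153 in CD45+ medium and from 25.3 to 111 in CD45- medium cells. Hist1h2bc followed another order. It stayed at 74.7, 71.7 and 68.2 CPM in CD45+ cells and was 298, 285 and 177 in CD45- cells. The sums alone do not tell fewer cells that express a gene from less RNA per cell. A Hist1h2bc UMI was found in 30.1, 30.6 and 30.2% of CD45- cells of the early, medium and late samples, without correction for depth. The cause of the lower late value was not tested.

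**Figure D2:**
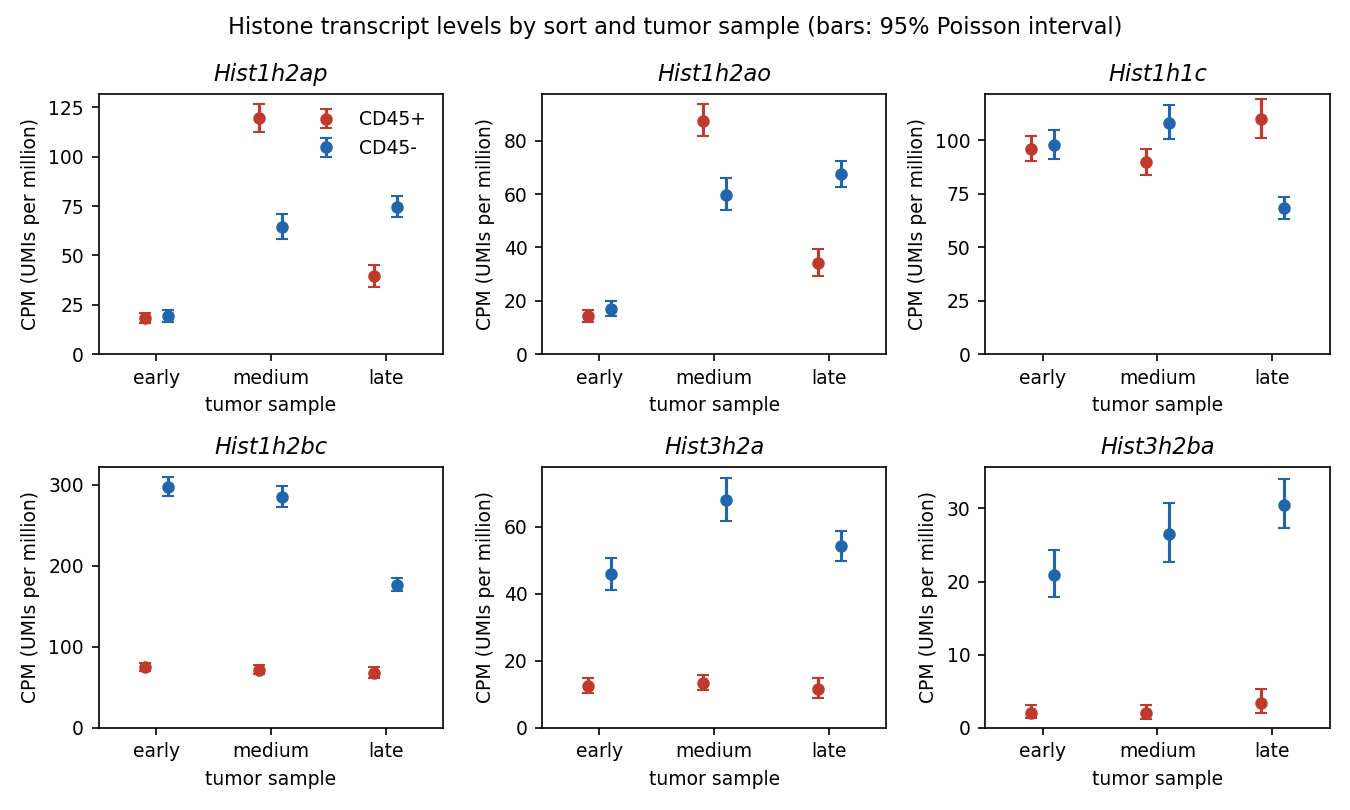
CPM of 6 members in CD45+ and CD45- cells of the early, medium and late tumor sample, on linear axes, with exact Poisson 95% intervals that cover counting error only. Hist1h2bc, Hist3h2a and Hist3h2ba lie higher in CD45- cells at each stage, whereas the intervals of Hist1h2ap in both sorts meet in the early sample and the order of the sorts turns between the medium and late samples.

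Between sorts, 36 members had enough counts to be tested over the 3 pairs with edgeR's quasi-likelihood test. After Benjamini-Hochberg adjustment over all genes, 2 were higher in CD45+ cells and 7 lower, against 20.3% and 25.7% of all genes tested, so the share of members called did not exceed that of all genes in either direction. The median log2 fold change was -0.01 for the members and -0.05 for all genes. The member median was not stable, at 0.34 without the early sample, -0.52 without the medium one and -0.03 without the late one. That of all genes was then -0.02, -0.06 and 0.0006. Without TMM scaling factors the median of all genes was -0.41, with 2 members higher and 12 lower, against 14.2% and 35.5% of all genes. With cycling cells, defined above, left out, 4 of 33 members were higher and 9 lower, against 22.8% and 27.1%. The members that were lower in CD45+ cells were led by the pair of neighbouring chromosome 11 genes Hist3h2ba and Hist3h2a, and by Hist1h4h, which was near the floor in CD45+ cells.

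Hist3h2ba, an H2B gene, was at 2.04, 2.06 and 3.35 CPM in CD45+ and at 20.9, 26.5 and 30.5 in CD45- cells of the early, medium and late samples, a log2 fold change of -3.04 (SE 0.27, adjusted p 0.000163). Hist3h2a was at 12.5, 13.4 and 11.7 against 45.8, 68.0 and 54.3 (log2 -1.78, SE 0.20, adjusted p 0.000401). The groups did not overlap for either gene. Hist1h4h had only 5, 7 and 2 UMIs in CD45+ and 77, 39 and 22 in CD45- cells (log2 -3.08, SE 0.52, adjusted p 0.00234). With so few CD45+ counts, set against a floor of 3 UMIs, it passed the low-count filter through its CD45- cells. The size of its change is uncertain.

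Hist1h2bc fell by 1.42 on the log2 scale in CD45+ cells (SE 0.23, adjusted p 0.00203) and Hist1h2be, another H2B gene, by 1.40 (SE 0.30, adjusted p 0.00671). Hist2h3c2, an H3 gene, also passed (log2 -1.37, adjusted p 0.0268) but did not without the early sample (adjusted p 0.137) or the medium one (0.117). The seventh, Hist2h2be, lay outside the rule for named genes and was at log2 -1.21 (adjusted p 0.0444), a call lost in DESeq2 (0.127) and on leaving out any of the 3 tumor samples (up to 0.194). Both members higher in CD45+ cells were linker histones. Hist1h1e was at 3.61, 5.14 and 4.27 CPM in CD45+ against 1.36, 2.13 and 1.70 in CD45- cells (log2 1.69, SE 0.36, adjusted p 0.00685), and Hist1h1d was at log2 1.46 (SE 0.33, adjusted p 0.00845). Hist1h1c (log2 0.49, SE 0.24, adjusted p 0.130) and Hist1h2ap (log2 0.33, SE 0.36, adjusted p 0.493) did not pass, and both were higher by CPM in 1 of 3 pairs only. Markers of other cells move with this contrast by design, since the sorts hold different cell types, and their part in these differences was not tested.

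The levels by cell class were read from 32 clusters of the cells. Names ending in -like were given where at least 3 fixed markers of that class were detected in 10% of the cluster's cells at a level of 2-fold or more over the rest, unless markers of another class led. This rule does not ask that a marker lead the cluster, and in 7 of the 27 named clusters no marker of the class was among the 10 genes with the highest fold. These 7 include 3 of 6 microglia-like clusters, of which 1 (455 cells) met only 3 markers, and all 3 glioma or oligodendrocyte progenitor-like clusters, which met 6 to 9 markers. Since the clusters were formed from the same counts, these levels are a description. Hist1h2ap was highest in neural stem or neuroblast-like cells, at 1049 CPM (95% Poisson interval 950 to 1155, 92 cells), of which 39.1% were cycling. It was 441 in a cluster (129 cells, 39.5% cycling) whose leading genes held both Elane and Mpo, granule genes of neutrophil precursors, and Cpa3, Fcer1a and Ms4a2, genes of mast cells and basophils, so that it is given no class name here, 389 in neutrophil-like cells (26.0% cycling), 240 in B cell-like and 115 in T cell-like cells. Plasmacytoid dendritic cell-like cells were at 184 (118 to 273) with 5.09% cycling, on 24 UMIs in 59 cells, of which 1 held at least 5. Glioma or oligodendrocyte progenitor-like cells were at 90.1 with 17.9% cycling, and microglia-like cells at 16.6 with 3.15% cycling.

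At the other end, oligodendrocyte-like cells, the myelinating glia of the brain, held Hist1h2ap at 0.875 CPM (0.352 to 1.80), with a UMI in 0.250% of cells. Choroid plexus-like (4.34), neuron-like (4.32) and endothelial-like cells (4.88) were also low. Neuron-like cells held Hist1h1c at 1.24 and Hist1h2bc at 31.5 CPM, but Hist3h2a at 49.4 and Hist3h2ba at 32.7.

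Hist1h2bc followed another order across the classes. It was highest in ependymal-like cells at 686 CPM, then choroid plexus-like (592), fibroblast-like (330), astrocyte-like (312) and oligodendrocyte-like cells (269), in which from 0.771 to 6.12% of cells were cycling. Microglia-like cells held 76.1 and neural stem or neuroblast-like cells 81.0. Hist3h2ba was found mainly in cells of neural lineage, at 101 CPM in neural stem or neuroblast-like, 50.1 in glioma or oligodendrocyte progenitor-like and 26.9 in oligodendrocyte-like cells, against 0.614 in microglia-like cells. No Hist3h2ba UMI was counted in neutrophil-like, B cell-like or macrophage or monocyte-like cells. For the last of these the upper limit was 1.54 CPM.

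**Figure D3:**
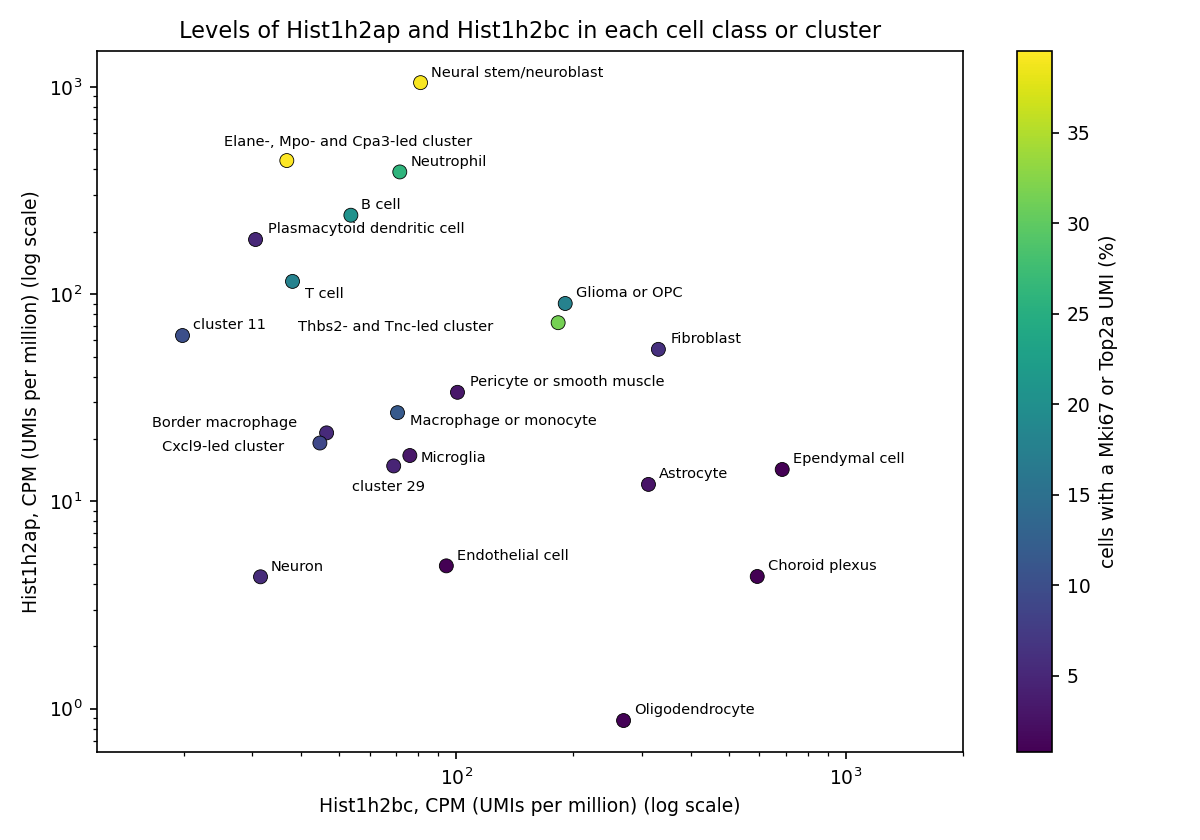
Levels of Hist1h2ap and Hist1h2bc in each class or cluster, both in CPM on log axes, with the color giving the percent of cells that hold a Mki67 or Top2a UMI. The neural stem or neuroblast-like cells stand at 1049 for Hist1h2ap and 81.0 for Hist1h2bc, and the ependymal-like cells at 14.2 and 686.

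Levels within a class also differed across the tumor samples. In glioma or oligodendrocyte progenitor-like cells, Hist1h2ap went from 55.0 CPM (early) through 72.4 (medium) to 114 (late), and Hist1h2bc was at 46.8, 298 and 106. The class held different cells by stage, since 0 of its 188 early cells had a UMI of the human EGFR transgene, against 74.4% of 598 medium and 74.3% of 639 late cells. Hist1h2ap was at 76.2 (95% Poisson interval 65.9 to 87.7) in medium cells with a transgene UMI and 52.2 (33.8 to 77.1) in those without, with overlapping intervals, and at 126 (113 to 141) and 19.7 (7.93 to 40.7) in late cells. The late value without a transgene UMI rests on 7 UMIs in 164 cells. Cells were split without correction for depth, and a transgene UMI is found more readily in a deeper cell. Hist1h2bc was at 322 (300.1 to 345) with and 171 (136 to 213) without a transgene UMI in medium cells, and at 109.7 (97.4 to 123) and 76.1 (50.2 to 110.7) in late cells, where the intervals overlapped. Neutrophil-like cells held Hist1h2ap at 78.5, 458 and 226. Microglia-like cells held it at 12.6, 30.6 and 19.5. In the Elane-, Mpo- and Cpa3-led cluster it was 0 in 33 early cells and 543 in 84 medium cells. The oligodendrocyte-like Hist1h2bc level differed little, with 253, 270 and 297. These are single samples per stage.

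The cycling comparison asked whether histone RNA went with Mki67 and Top2a within a class, over tumor samples rather than over cells. In microglia-like CD45+ cells, 67, 63 and 57 cycling cells of the early, medium and late samples were set against 3907, 882 and 971 others. Of 16 members tested, 9 were higher in cycling cells and 0 lower, against 3.11% and 1.91% of all genes tested. The filter on low counts can let a gene enter through its cycling cells alone. Without that filter 9 of 61 members were higher and 0 lower, against 0.951% and 1.21% of all genes. With the filter, 10 were higher and 0 lower at unadjusted p under 0.05. The share of all genes at unadjusted p was not counted, here or below. DESeq2 called 9 higher and 0 lower, against 2.6% and 0.548% of all genes. All 9 were H2A genes of the Hist1 cluster, with log2 fold changes from 4.02 to 4.93. They belong to a single group of near-identical copies and count as 1 observation. Each held 81.3 to 84.9% of its UMIs in cycling cells, as counted over all classes.

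Hist1h2ap was at 210, 215 and 148 CPM in cycling microglia-like cells of the early, medium and late samples (33, 35 and 26 UMIs) and at 7.47, 15.3 and 8.65 in the other microglia-like cells. The groups did not overlap, and the fold was 17.3 (log2 4.11, SE 0.36, adjusted p 1.35e-12, from 3.70e-28 to 0.0341 over the alternatives, higher in 3 of 3 pairs). Hist1h2ao (log2 4.02, SE 0.40) and Hist1h2ag (4.90, SE 0.64) gave like values from fewer UMIs. With only the 3 microglia-like clusters that had a microglia marker among their 10 leading genes (31, 15 and 29 cycling cells), 3 of 11 members were higher and 0 lower, against 0.886% and 0.657% of all genes, and 9 and 0 at unadjusted p under 0.05. Hist1h2ap was then at log2 2.70 (adjusted p 0.0341). Hist1h2bc did not pass, with 69.9, 67.6 and 56.8 CPM in cycling against 79.4, 94.9 and 57.5 in other cells (log2 -0.39, SE 0.34, adjusted p 0.643). Hist1h1c was at log2 -0.10 (SE 0.28, adjusted p 0.913) and Hist3h2a, with 1, 0 and 1 UMIs in cycling cells, at -1.85 (SE 1.07, adjusted p 0.409).

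In glioma or oligodendrocyte progenitor-like CD45- cells only the medium and late samples entered, because the early one had 6 cycling cells. This left 1 residual degree of freedom, and the p-values rest largely on the spread shared across genes. Of 21 members tested, 10 were higher in cycling cells and 0 lower, against 4.86% and 3.79% of all genes. Without the filter on low counts 9 of 58 members were higher and 0 lower, against 1.8% and 1.58%. The 10 were the same 9 H2A genes and Hist1h1c. Hist1h2ap was at 382 and 311 CPM in cycling against 11.3 and 15.3 in other cells (log2 4.68, SE 0.24, adjusted p 1.93e-47, from 5.78e-74 to 0.00173 over the alternatives, higher in 2 of 2 pairs). Hist1h1c was at 196 and 70.9 against 129 and 36.5 (log2 0.75, SE 0.24, adjusted p 0.0293), and this call was lost in 7 alternatives, among them DESeq2 (0.670). Hist3h2a was at 32.6 and 62.0 against 89.2 and 77.8 (log2 -0.77, SE 0.31, adjusted p 0.110).

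**Figure D4:**
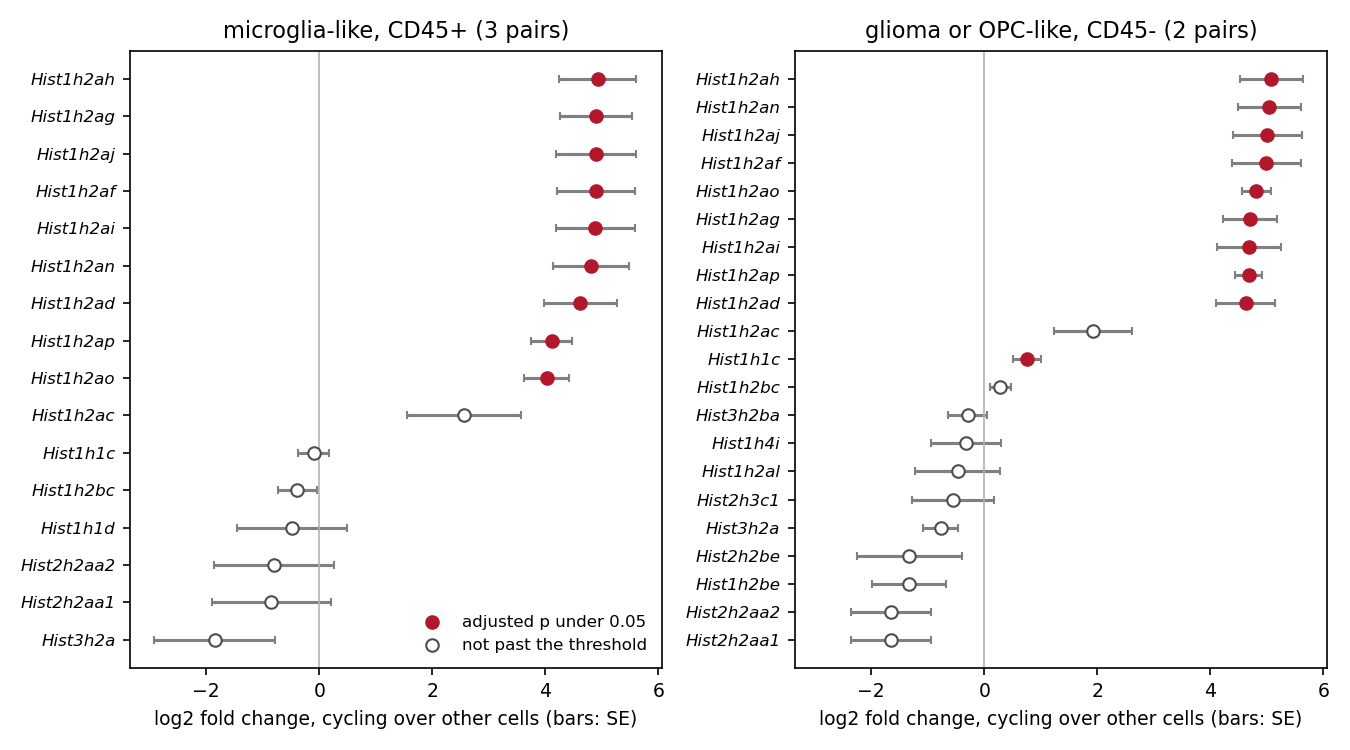
Log2 fold change of cycling over other cells for each member tested, with SE bars, in microglia-like CD45+ cells (3 pairs) and glioma or oligodendrocyte progenitor-like CD45- cells (2 pairs). Filled points passed an adjusted p of 0.05. The 9 cluster H2A genes lie above 4 in both panels, apart from the other members.

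The difference of the cycling effect between both classes was tested as an interaction. None of 23 members passed in edgeR's quasi-likelihood test (smallest adjusted p 0.682), against 0.295% of all genes higher and 0.165% lower. At unadjusted p under 0.05, 0 members were higher and 1 lower, and DESeq2 called 0. For Hist1h2ap the difference, microglia-like minus glioma or oligodendrocyte progenitor-like, was -0.49 on the log2 scale (SE 0.44), and for Hist1h1c -0.78 (SE 0.39, unadjusted p 0.0426).

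Genes that act on histones or their transcripts were counted in the same fits, by lists, against 3.11% and 4.86% of all genes that were higher in cycling cells of both classes, so that 1 gene of a list this short is near the background. Of the genes for histone transcription and mRNA processing, 1 of 12 tested rose in cycling microglia-like cells, Casp8ap2, a component of the histone locus body (log2 2.04, adjusted p 0.0359, and 0.355 in the clusters led by their own markers), and 1 of 11 in glioma or oligodendrocyte progenitor-like cells, Slbp (log2 0.65, adjusted p 0.0246). Of the histone chaperones 3 of 14 and 8 of 15 rose, led in both by Asf1b, which hands H3 and H4 to the assembly machinery (log2 5.16 and 3.68). Of the list of replication-independent histones, which mainly make polyadenylated mRNAs, 4 of 10 and 8 of 11 rose. Cenpa, the centromeric H3 variant, was at log2 4.53 and 4.22 and H2afx, which is known to make a stem-loop as well as a polyadenylated mRNA, at 4.44 and 3.24. S phase genes rose in 16 of 34 and 26 of 36 tested, with Rrm2 at log2 6.68 and 4.82, and G2 and M phase genes in 44 of 48 and 48 of 48.

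Captured histone RNA was then set against phase within cycling cells. Cycling cells were split by whether an S phase list or a G2 and M phase list was the stronger relative to its mean, neither of which holds a member. No member passed in either sort. Only cells with a Mki67 or Top2a UMI entered, so any S phase cells without either were left out. The split therefore cannot decide whether histone RNA marks S phase. In CD45+ cells 0 of 11 were called in either direction (background 0.416% higher and 1.10% lower, 0 and 1 at unadjusted p under 0.05), and in CD45- cells 0 of 14 (0.198% and 0.856%, 0 and 0 unadjusted), with 0 by DESeq2 in both. Hist1h2ap in CD45+ cells was at 172, 538 and 236 CPM in S-leaning against 381, 508 and 226 in G2/M-leaning cells of the early, medium and late samples (log2 -0.24, SE 0.20, adjusted p 0.797). In CD45- cells it was at 855, 540 and 223 against 612, 661 and 277 (log2 -0.11, SE 0.21, adjusted p 0.999). The groups overlapped in both sorts.

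The same fits separated other genes, but those named here lay on the G2/M side. Cenpa, which is in neither list, was lower in S-leaning cells (log2 -2.03 in CD45+ and -2.74 in CD45- cells, adjusted p 2.52e-05 and 5.30e-05), as was H2afx (-1.82 and -1.33). Mki67, used to choose the cycling cells, was at log2 -1.13 and -1.33. Top2a, used likewise, was at -0.91 in CD45+ cells and did not pass in CD45- cells. Of the S phase list, which made the split, 14 of 32 and 5 of 31 were higher in S-leaning cells, against 0.416% and 0.198% of all genes. Of the histone chaperones 0 of 13 were called in each sort. No gene of the other lists was higher, so they do not show that the split picks out further S phase genes. Of 874 cycling CD45+ cells, 279 lay within 2-fold of the boundary, as did 167 of 517 CD45- cells.

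Cells were also grouped by both lists. Each cell was thinned to 1000 UMIs to place it, and a list counted as present with at least 3 of them. In CD45+ cells Hist1h2ap was at 9.81 CPM in 9277 cells with neither list, 72.0 in cells with the S list alone, 222 with the G2 and M list alone and 664 (95% Poisson interval 618 to 713) in 327 cells with both. In CD45- cells the order was the same, with 5.26, 18.1, 101 and 646 (604 to 690). The share of cells with a Mki67 UMI, before thinning, ran in this order too. It was 1.13, 5.0, 27.5 and 52.3% in CD45+ and 0.579, 3.87, 13.4 and 59.7% in CD45- cells. The groups thus differ in how many cells divide as well as in phase, and their order cannot be read as phase alone. Hist1h2bc did not follow this order. Its levels were 74.4, 38.03, 95.7 and 38.1 in CD45+ and 251, 157, 275 and 147 in CD45- cells, and cells with the S list, alone or with the other, were lowest in both sorts.

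**Figure D5:**
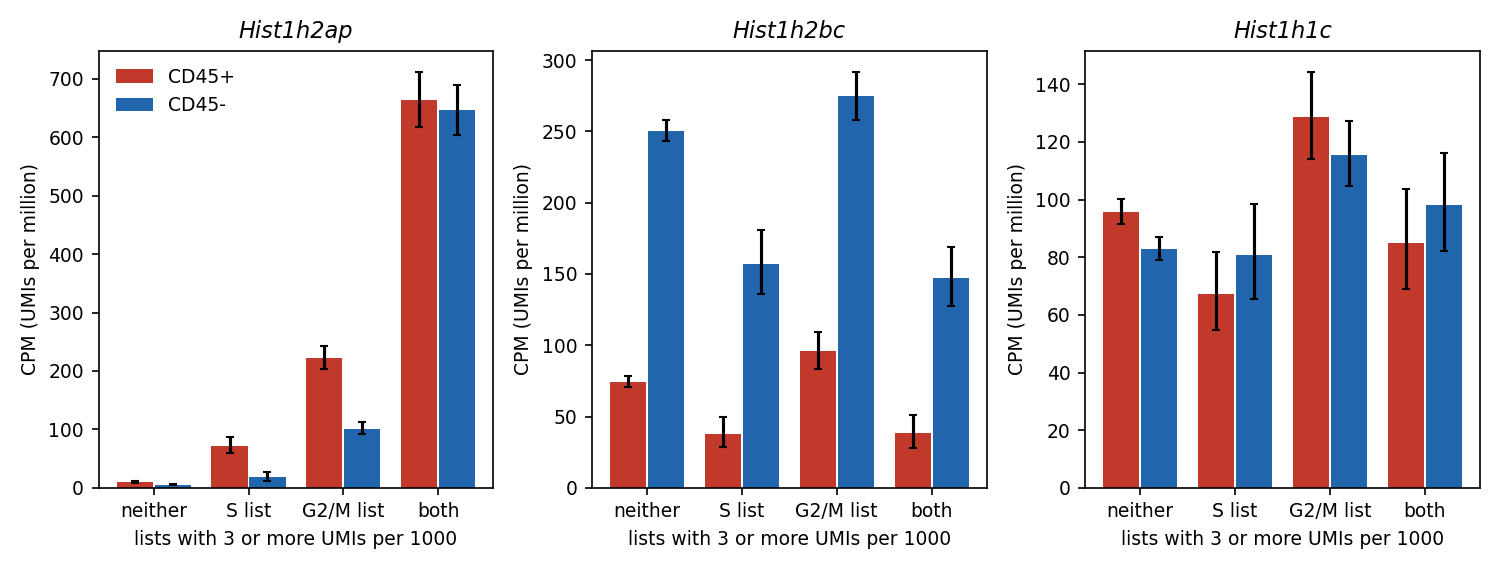
CPM of Hist1h2ap, Hist1h2bc and Hist1h1c in CD45+ and CD45- cells grouped by which phase list reached 3 of 1000 thinned UMIs. Bars start at 0 and carry exact Poisson 95% intervals. Hist1h2ap reaches 664 and 646 in cells with both lists, and Hist1h2bc does not rise there. The share of cells with a Mki67 UMI also differs between the groups.

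Cell by cell, 154 cells with at least 5 Hist1h2ap UMIs held 66.4% of all its UMIs. Of these, 145 (94.2%) had a Mki67 or Top2a UMI, at a median depth of 5502 UMIs. They came from many classes, with 34 glioma or oligodendrocyte progenitor-like, 31 neutrophil-like, 17 neural stem or neuroblast-like, 15 of the Elane-, Mpo- and Cpa3-led cluster and 14 T cell-like cells, 14 of a cluster led by Thbs2 and Tnc, 12 B cell-like cells, and 5 of 6293 microglia-like cells. After thinning every cell to 1000 UMIs, with 213 shallower CD45+ and 212 CD45- cells left out, Hist1h2ap was detected in 22.5% (95% Clopper-Pearson interval 19.1 to 26.2) of CD45+ cells with a Mki67 or Top2a UMI and in 1.45% (1.23 to 1.70) of those without. In CD45- cells these shares were 19.9% (15.5 to 25.0) and 0.837% (0.624 to 1.10). In oligodendrocyte-like cells, mature glia that are not expected to divide, 0.250% held a Hist1h2ap UMI before thinning, at cluster medians of 2251 to 3280 UMIs per cell. Without thinning the shares by Mki67 or Top2a were 34.6% and 2.18%, and 35.2% and 1.89%.

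For Hist1h2bc the thinned shares were 4.39% (2.86 to 6.42) with and 4.72% (4.32 to 5.15) without a Mki67 or Top2a UMI in CD45+ cells, and 11.7% and 16.1% in CD45- cells. Any member was detected in 44.3% against 17.9% of CD45+ and 52.6% against 32.7% of CD45- cells. Over all kept cells Pearson's r of Hist1h2ap with Top2a was 0.44 in CD45+ (11185 cells) and 0.51 in CD45- cells (6596), and with Mki67 0.39 and 0.46, whereas Hist1h2bc and Top2a gave 0.00 and -0.04. Within cycling cells Hist1h2ap correlated with the G2 and M list at 0.42 and 0.39 and with the S list at 0.36 and 0.39. Cells share libraries and differ in depth, so these coefficients are descriptive.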

How the data were processed

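Per the labels and the study's methods, viable CD45+ and CD45- cells were run on inDrop. The authors mapped reads with RapMap in bcbio-nextgen to the GRCm38 transcriptome with transgenes, called cells against empty droplets, and deposited raw UMI counts per gene and cell. A second deposited file holds other values, the text labels of each library (sort, stage, run and barcode). The methods describe ambient RNA and doublet removal, but whether the table precedes these steps is not given in the sources used here. Multi-mapping reads can raise several histone copies at once.

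Cells with at least 500 UMIs, 500 genes and at most 20% mitochondrial UMIs were kept, and doublets called by Scrublet per library were removed (11218 CD45+ and 6676 CD45- cells before, 11185 and 6596 after). Leiden clusters (resolution 1, 40 components) were named from marker lists. UMIs were summed per tumor sample and arm and tested over all genes with edgeR 4.0.16 (TMM, filterByExpr, robust quasi-likelihood, tumor sample as block, two-sided, Benjamini-Hochberg threshold 0.05). Both sorts come from the same tumor sample, and their deviations correlated at 0.38, 0.28 and 0.31. Each stage is 1 tumor sample and the 4 libraries of each sort are technical repeats, so no test rests on more than 3 samples. The fits left 1 to 3 residual degrees of freedom. Their p-values therefore rest largely on the spread shared across genes. Intervals cover counting error only. On simulated counts for the sort comparison (18312 genes) 16.2% of 2-fold and 90.0% of 4-fold changes were recovered, and for microglia-like cells (9288 genes) 17.5% and 68.4%. These counts were drawn with the same spread for every gene and no difference between tumor samples. The rates therefore do not give the power of the fits to the real counts.

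Named members were the 12 with most UMIs and those called in a fit, up to 6 by size of change per fit and direction, and for each gene list the 2 highest and 2 lowest of its called genes. The members and lists were chosen with earlier results of these data known. A further allele of the tumor model is not reported here. Alternatives were DESeq2 1.42.0, no TMM factors, no filter on low counts, no block, each tumor sample left out, doublets kept, other cycling and phase cuts, and others added after seeing the data.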

Additional observations from a re-analysis of the deposited data

Results flagged for a closer look

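The cycling effect differed between microglia-like and glioma or oligodendrocyte progenitor-like cells for 2 genes of the G2 and M phase list, by edgeR's interaction term. For Cks2, which encodes a subunit of cyclin-dependent kinases, the log2 difference (microglia-like minus glioma or oligodendrocyte progenitor-like) was -2.51 (SE 0.57, adjusted p 0.00531). For Tubb4b, a beta-tubulin, it was 1.63 (SE 0.32, adjusted p 0.000428). Both calls were lost without the replicate block (adjusted p 0.324 for each), and that of Cks2 also without the early sample (0.0667). Both were also lost without the medium or the late sample. Glioma or oligodendrocyte progenitor-like cells then had 1 tumor sample left, so these fits cannot decide. With these genes the cycling split was the same as for the members, and only the medium and late samples gave the second class.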

How the results depend on the processing

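Of 28 results for single members, 250 of 269 alternatives kept direction and side of the threshold and 19 lost the call, 7 for Hist1h1c in glioma or oligodendrocyte progenitor-like cells, 4 for Hist2h2be and 2 for Hist2h3c2 between sorts, and 6 for H2A genes where only the microglia-like clusters led by their own markers were used, which left 3 members higher. Over all 109 single-gene results, 839 of 1045 alternatives kept the call, 206 lost it and 0 reversed. In the sort comparison, leaving out cycling cells gave 4 members higher (22.8% of all genes). Without TMM factors, where the median of all genes moved from -0.05 to -0.41, 12 of 36 were lower (35.5%), as were 12 of 70 without the filter (17.3%). The replicate block was part of the design. Without it, 2 of 34 members were higher and 8 lower between sorts (18.8% and 23.9% of all genes), 9 of 13 were higher in microglia-like (2.98%) and 9 of 21 in glioma or oligodendrocyte progenitor-like cells (1.2%), and 0 were called by phase or in the interaction. Over all genes the fit without the block called 152 higher and 0 lower in glioma or oligodendrocyte progenitor-like cells, against 613 and 479. With CD45- cells that held a human EGFR UMI in place of that class, 10 of 23 members were higher (2.87% of all genes). This set held 308 cycling and 659 other late cells, whereas the class held 475 late cells with a transgene UMI. Many late transgene cells thus lay outside the class.

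The level of all members, in CPM, moved beyond its counting interval as follows. In CD45+ cells the early value was 395.3 within run 1 and 256.2 with copies collapsed, the medium value 592.8 with 1 cell per barcode, 689.7, 597.4 and 777.8 within runs 1, 2 and 3 and 368.0 collapsed, and the late value 364.4, 334.7 and 468.0 within runs and 291.7 collapsed. In CD45- cells the early value was 628.9 over every deposited cell, 713.2 and 790.8 within runs 2 and 3 and 600.2 collapsed, the medium value 764.5, 975.4 (run 1), 836.3 (run 3) and 657.6, and the late value 653.5, then 730.4, 576.5 and 616.0 within runs and 471.0 collapsed. Runs hold different libraries of a stage and sort, and the cause of these moves was not tested. Shares with any member UMI were 38.4% and 11.6% in CD45+ and 39.5% and 20.9% in CD45- cells thinned to 500 UMIs, and 55.6% and 26.3%, and 76.2% and 51.8%, without thinning. Leaving out the medium or late sample gave no test in glioma or oligodendrocyte progenitor-like cells, and the stricter cycling cut was not run for the interaction.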
